A study of Mus musculus with 16 samples.

Results

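The posterior section of the mouse gut tube at E8.75 was compared with the embryonic visceral endoderm (emVE) of E7.5 across all genes, from the raw counts of 4 of the series' 16 libraries. The members are the 2 libraries whose titles name the posterior gut tube and the 2 whose titles name emVE cells. Both this choice and that of the gene lists were made with earlier results of these data known. The posterior section is the tail end of the gut tube of embryos with 13 somites. The emVE is the part of the outer endoderm layer that covers the embryo proper at gastrulation. Of the 26761 gene symbols in the files, 17313 had enough counts to be tested. The embryos came from natural matings, and polyadenylated RNA was sequenced. The protocol text in the labels is written for single cells: it names Afp-GFP TG/+ embryos for the 13-somite gut tube, whose heads and membranes were taken off before a short Pancreatin and Trypsin treatment on ice and dissection with needles. At E7.5 the endoderm layer was lifted off after the same kind of treatment. The labels do not say whether the bulk libraries came from embryos with the Afp-GFP transgene, a reporter driven by regulatory sequence of the alpha-fetoprotein gene, nor how many embryos each library pooled. They do not say that the replicates are separate embryos, so p-values measure only the spread between these libraries. Stage, position along the body and kind of tissue all differ between the groups and cannot be told apart. Fewer cells of a type and less RNA per cell cannot be told apart either.

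The mouse body axis is laid down from the primitive streak and the node, a small pit of ciliated cells at the front end of the streak whose cells become the notochord, the midline rod that signals through Sonic hedgehog. The streak is later replaced by the tail bud, where progenitors kept by Wnt and FGF signals go on to make trunk and tail. The hindgut lies next to the tail bud. Hox genes, in 4 clusters, are switched on in the order of their paralog groups from 1 to 13, so that higher groups mark later and more posterior tissue. Cdx genes encode homeobox factors of the caudal embryo and the hindgut, and act upstream of many Hox genes. The visceral endoderm is an absorptive epithelium that feeds the embryo before the placenta works, and its anterior part secretes antagonists of Nodal and Wnt that protect the future head. Some of its descendants stay in the gut tube, more of them toward its hind end.

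The markers of the labelled tissues were present, and so were those of their neighbours. Levels are given as CPM, a gene's counts relative to the library's TMM-scaled total count, on 1 common scale for all libraries. The 24 visceral endoderm genes summed to 466 and 1853 CPM in posterior replicates 1 and 2 and to 20427 and 22316 CPM in emVE replicates 1 and 2, against 52672 and 57238 CPM in the libraries of extraembryonic visceral endoderm (exVE) of E7.5. The emVE libraries also held genes of the node and notochord, 1224 and 1255 CPM summed over 14 genes, where exVE held 255 and 238. They held genes of presomitic mesoderm too, 289.9 and 245 CPM over 19 genes against 19.2 and 8.79 in exVE. So the libraries labelled emVE carried RNA of axial and mesodermal kinds as well as of visceral endoderm. The 16 definitive endoderm and gut epithelium genes summed to 4883 and 5223 CPM in emVE and 3329 and 3277 CPM in exVE. Of these, 10 were higher in emVE than in exVE and none lower, beside 23.8% of all genes higher. The endoderm of these libraries is thus not shown to be visceral only. Blood markers summed to 807 and 828 CPM in the posterior and 14.2 and 17.6 CPM in the emVE libraries, where the embryonic globins Hbb-y and Hba-x had 0 counts. Endothelial markers summed to 627 and 1006 CPM in the posterior and 29.2 and 48.3 CPM in the emVE libraries.

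The 2 posterior libraries differed from each other in makeup. Replicate 1 was the higher in all 16 genes of the definitive endoderm and gut epithelium list, in 11 of 12 germ cell genes and in 10 of 14 node and notochord genes. Replicate 2 was the higher in 22 of 24 visceral endoderm genes, in all 12 endothelial genes, in 9 of 11 allantois genes and in 7 of 10 intermediate and lateral plate mesoderm genes. The part these differences play in the results was not tested. Total counts were 78996683 and 78333920 in the posterior libraries and 57061536 and 65231076 in the emVE libraries. Mitochondrial genes took 2.52% and 2.30% of the posterior counts and 5.48% and 4.77% of the emVE counts. Xist, transcribed from the inactive X chromosome of females, was at 104 and 76.3 CPM in the posterior and 730.0 and 484 CPM in the emVE libraries, and the Y-linked Ddx3y was at 31.5 and 46.5 CPM (posterior) and 31.1 and 21.1 CPM (emVE), so every library held RNA of male embryos. Neither gene passed the test (Xist edgeR adjusted p = 0.19).

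**Figure D1:**
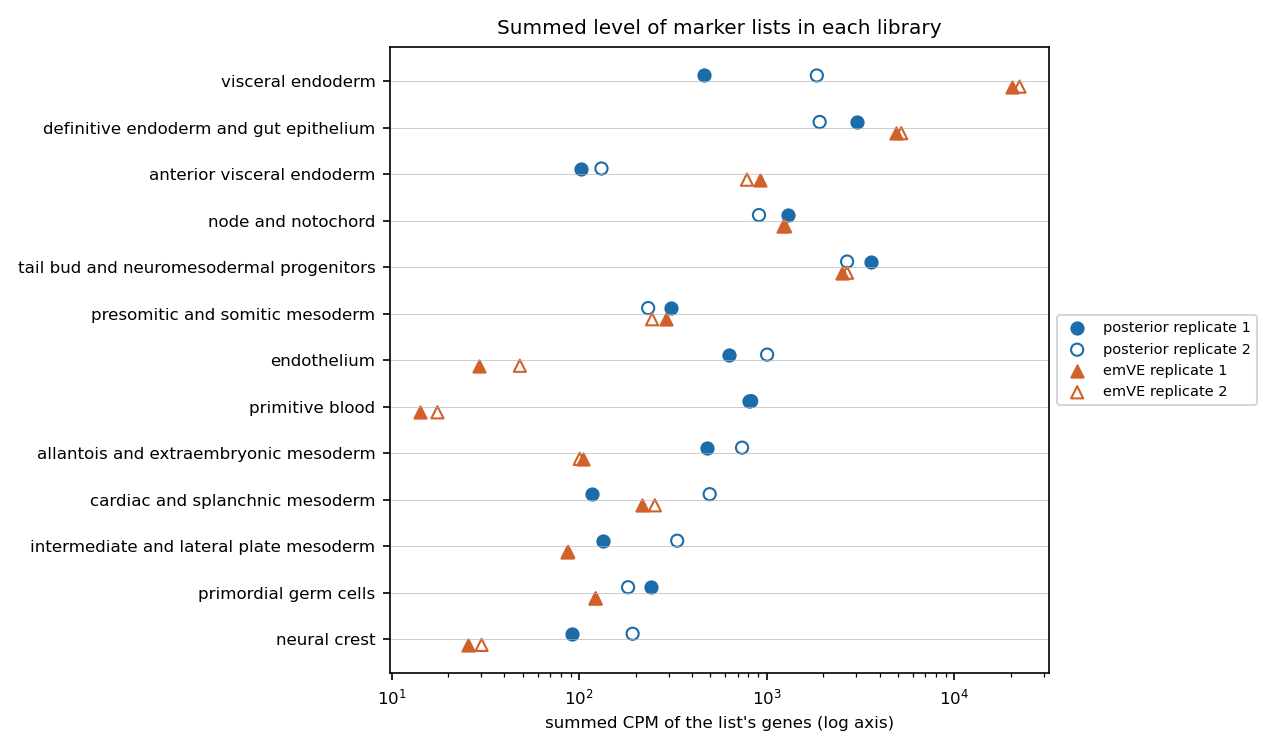
Summed CPM of 13 marker lists on a log axis in the 2 posterior libraries (blue circles) and the 2 emVE libraries (orange triangles); filled symbols are replicate 1 and open symbols replicate 2. The lists of node and notochord and of presomitic mesoderm lie close together in all 4 libraries, while visceral endoderm, endothelium and blood lie far apart.

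Across all genes the groups differed widely. Of the 17313 genes, 3790 (21.9%) were higher and 3250 (18.8%) were lower in the posterior section than in emVE at an adjusted p under 0.05, by edgeR's quasi-likelihood test with Benjamini-Hochberg adjustment over all genes. The change was over 1 on the log2 scale in 1989 of the higher and 2058 of the lower genes. For another count, 6502 genes (37.6%), the 95% interval of the log2 change lay inside -1 to 1, which bounds the difference below 2-fold; such genes are called bounded here, and a gene can be bounded and also pass the test. The median log2 change of all genes tested was 0.03, the value against which the medians of gene lists below are read. The counts of each list are likewise read beside the 21.9% higher, 18.8% lower and 37.6% bounded of all genes. A log2 change is posterior minus emVE throughout, with its standard error (SE) from the same fit.

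**Figure D2:**
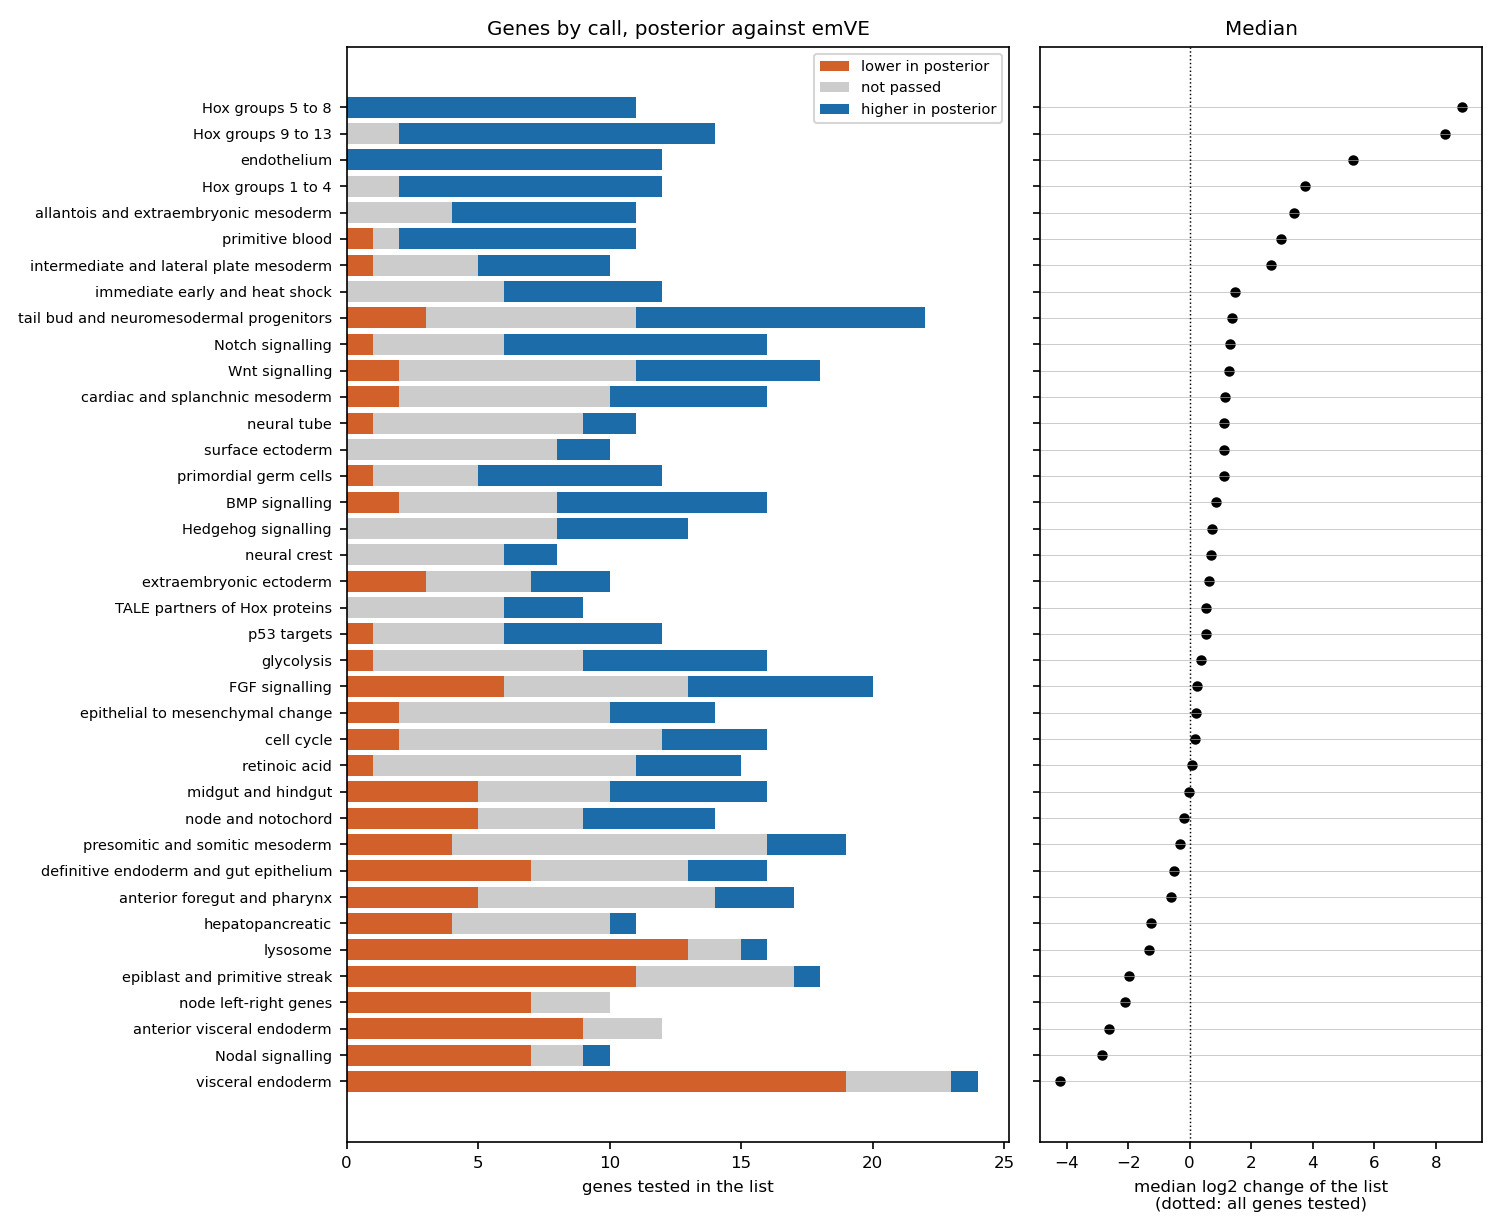
For 38 gene lists, the left panel counts the tested genes that were lower (orange), not past the test (grey) or higher (blue) in the posterior section, and the right panel gives the list's median log2 change, with all genes tested as a dotted line. The 3 Hox lists and endothelium have the highest medians, and visceral endoderm the lowest, at -4.20.

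Of the axial genes, T, Noto and Nkx1-2 did not pass the test between the tissues, while most other genes of the node and tail bud lists did. T (Brachyury), the T-box factor of streak, notochord and tail bud, was at 453 and 224 CPM in the posterior libraries and 393 and 379.9 CPM in the emVE libraries. The posterior libraries lay on either side of the emVE pair, and the log2 change was -0.19 (95% interval -1.13 to 0.75, edgeR adjusted p = 0.76). Noto, a homeobox factor of the node and notochord, was at 51.8 and 22.9 CPM in the posterior and 42 and 41.7 CPM in the emVE libraries, again overlapping (log2 change -0.16, interval -2.25 to 1.93). Nkx1-2, a homeobox gene of the progenitors that feed spinal cord and paraxial mesoderm, was at 10.8 and 53.2 CPM (posterior) and 42 and 29.3 CPM (emVE). Here posterior replicate 2 was the highest and replicate 1 the lowest of the 4 libraries (log2 change -0.16, interval -1.86 to 1.55). These intervals reach past 1 in at least 1 direction, so a 2-fold difference is not excluded for any of the 3 genes.

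All 3 of these genes were higher in the posterior than in the anterior gut section and in emVE than in exVE. The posterior section was not tested here against the other gut groups of E8.75. T was at 54.9 and 29.3 CPM in the anterior gut section and at 8.63 and 5.15 CPM in exVE, which gave log2 changes of 3.01 (posterior minus anterior, edgeR adjusted p = 0.0022) and 5.81 (emVE minus exVE, adjusted p = 9.23e-06). In all, 697 genes (4.03%) were higher in the posterior than in the anterior section and 4129 (23.8%) were higher in emVE than in exVE. These comparisons share no library. Both held for 207 genes, or 1.2% of those tested, which is 29.7% of the 697 and 5.01% of the 4129. Leaving out 1 anterior library gave 79 (replicate 1) or 108 (replicate 2), and leaving out posterior replicate 1 gave 107. Between posterior and emVE themselves, 98 of the 207 were higher in the posterior section, 23 were lower, 86 did not pass and 30 were bounded. Of all genes tested, 21.9% were higher, 18.8% lower and 37.6% bounded. The 207 were picked with these same posterior and emVE libraries, so these counts are not independent of that choice. A further 165 genes were higher in the posterior section at E8.75 but lower in emVE than in exVE, and 53 were lower in both comparisons. The 165 are 23.7% of the 697 and 4.75% of the genes lower in emVE than in exVE. Those lower genes were 3476 of the 17313 tested. None of these overlaps was tested.

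Ranked by the smaller of their log2 changes in these comparisons, the top 12 of the genes with a mean log2 CPM of 3 or more in both tissues were Noto, Hes7, Pou5f1, Tbx6, Nkx1-2, Dll3, Apela, Foxb1, Cdx1, Gal, T and Klhl32. Tbx6, the T-box factor that commits cells to presomitic mesoderm, was at 16.8 and 12.4 CPM in the posterior and 41 and 29.1 CPM in the emVE libraries, with 0.497 and 0.492 CPM in the anterior section and 1.81 and 0.584 CPM in exVE. Both emVE libraries were above both posterior ones, and the difference did not pass (log2 change -1.27, interval -2.54 to 0.00, edgeR adjusted p = 0.1) unless only these groups were fitted. Dll3, a Notch family ligand of the presomitic mesoderm, was at 25.4 and 18.9 CPM (posterior) and 20.2 and 18.7 CPM (emVE), and the posterior and emVE libraries overlapped (log2 change 0.19, interval -0.74 to 1.11). Hes7, the repressor that drives the segmentation clock, was at 31.8 and 13.2 CPM in the posterior and 9.91 and 6.61 CPM in the emVE libraries. It was higher in the posterior section (log2 change 1.45 ± 0.54 SE, edgeR adjusted p = 0.05), a call just inside the threshold. It was lost with a replicate block, with DESeq2's size factors and without posterior replicate 1 (log2 change 0.69) or either emVE library.

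Signals and secreted factors were among the 12 as well. Apela, a peptide that activates the apelin receptor, was at 483 and 170.3 CPM in the posterior and 159.6 and 177 CPM in the emVE libraries, with replicate 1 of the posterior section above the other 3 libraries; it did not pass. Gal, which encodes the neuropeptide galanin, was at 12.5 and 6.48 CPM (posterior) and 13.8 and 15.7 CPM (emVE) and had 0 counts in both exVE libraries. Pou5f1, the pluripotency factor of epiblast and germ cells, was at 43.1 and 9.36 CPM in the posterior and 101 and 58.6 CPM in the emVE libraries, where every emVE library was above every posterior one, but the difference did not pass (log2 change -1.60, interval -3.12 to -0.08). Without posterior replicate 1 the log2 change was -3.08 and passed (edgeR adjusted p = 0.014). The forkhead gene Foxb1 was at 13.3 and 13.2 CPM (posterior) and 31.5 and 18.8 CPM (emVE), and Klhl32, of the kelch-like family, at 16.1 and 7.34 CPM (posterior) and 9.34 and 9.26 CPM (emVE). Neither passed the test between posterior and emVE.

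**Figure D3:**
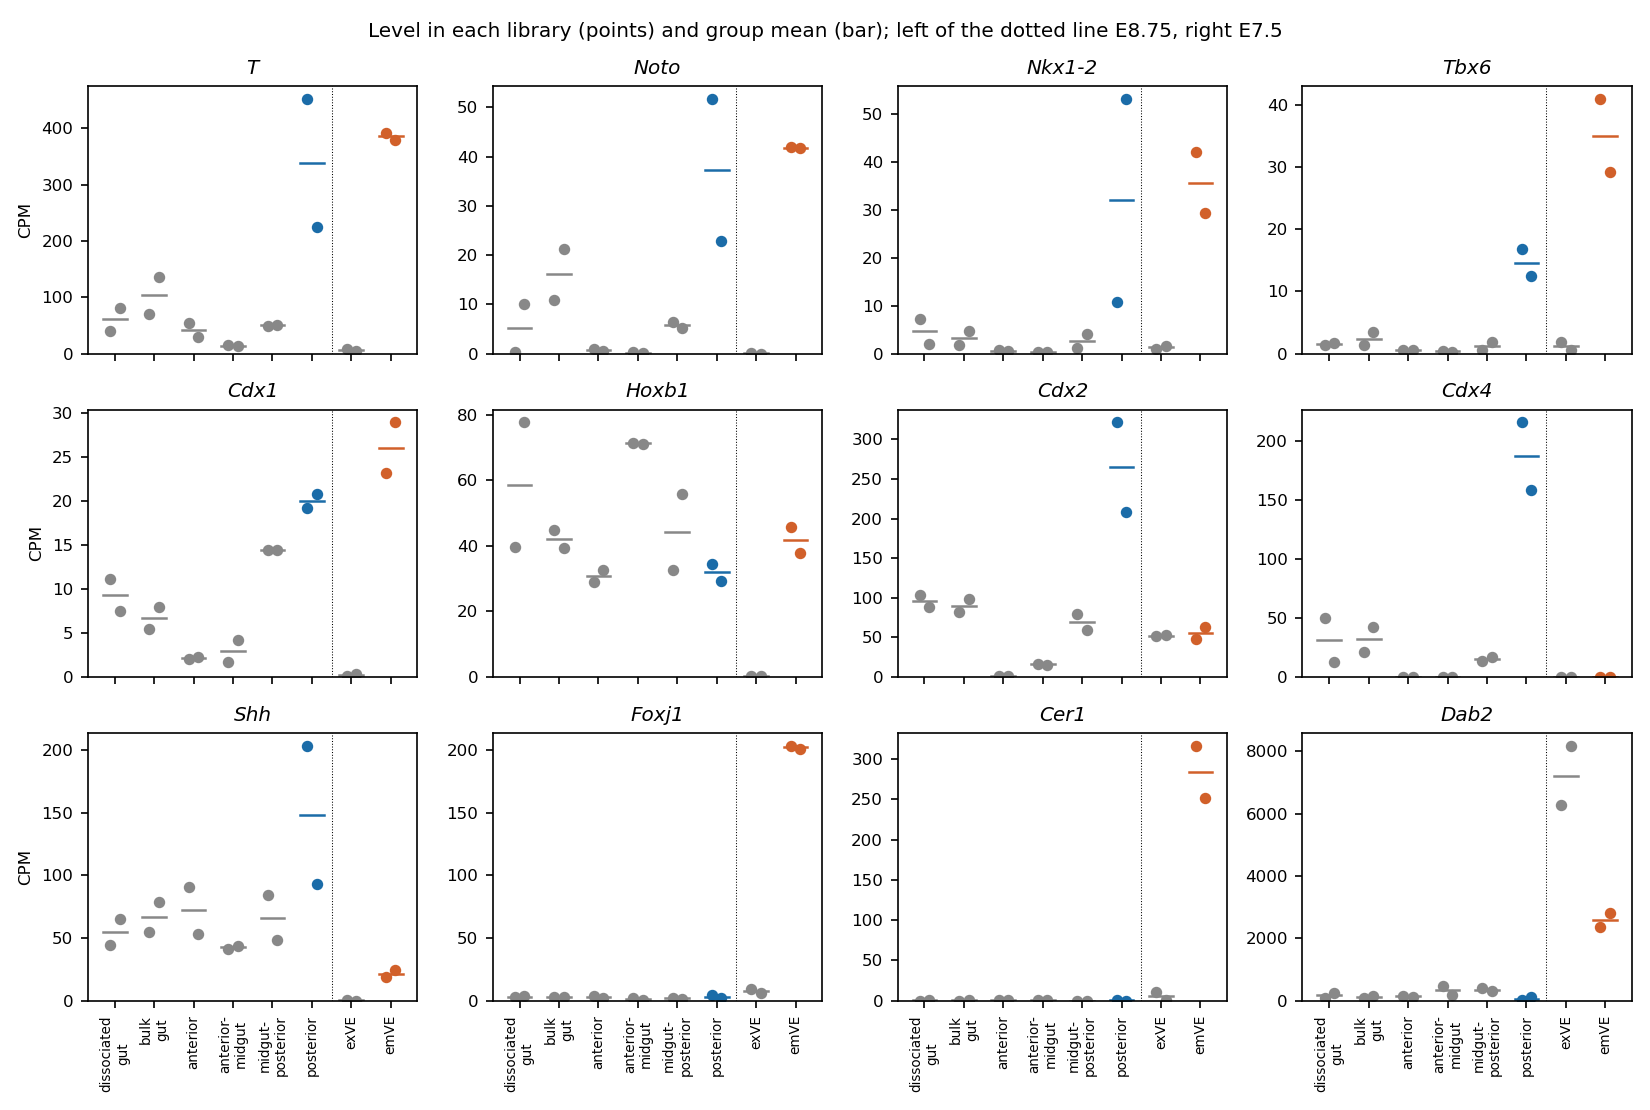
CPM of 12 genes in each library (points, with the mean of the 2 libraries as a bar) of the 8 groups, posterior in blue and emVE in orange. T, Noto, Nkx1-2, Tbx6 and Cdx1 stand high in posterior and emVE and low in anterior gut and exVE; Cdx4 stands high in the posterior section and near 0 in emVE, and Foxj1 and Cer1 the reverse.

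Beyond T and Noto, the node and notochord genes went in both directions. Of its 14 genes, 5 were higher and 5 lower in the posterior section, beside 21.9% and 18.8% of all genes. A further 4 did not pass, and none of the 14 was bounded (median log2 change -0.18). Without posterior replicate 2 or without emVE replicate 1 the counts became 3 higher and 2 lower, and without emVE replicate 2 the 5 lower became 2 (3 with only these groups fitted). Shh, the hedgehog ligand of notochord and gut endoderm, was at 204 and 92.8 CPM in the posterior and 18.7 and 24.1 CPM in the emVE libraries. It was higher in the posterior section (log2 change 2.79 ± 0.46 SE, edgeR adjusted p = 5.87e-04). Foxa2, the forkhead factor of node, floor plate and endoderm, went the other way with 95.5 and 35.8 CPM against 138 and 153 CPM (log2 change -1.14 ± 0.39 SE, adjusted p = 0.035); the call was lost with only these groups fitted and without posterior replicate 2 or either emVE library, and the log2 change was -2.01 without posterior replicate 1. Sox6, a SOX factor of the notochord sheath, was at 10.5 and 15.9 CPM (posterior) and 1.51 and 1.55 CPM (emVE) (log2 change 3.11 ± 0.35 SE). Bicc1, an RNA-binding protein of node cells, was lower in the posterior section, with 57.6 and 36.4 CPM against 116 and 119 CPM (log2 change -1.32 ± 0.25 SE).

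Several genes of the node's motile cilia were much lower in the posterior section than in emVE. Foxj1, the master regulator of motile cilia, was at 4.14 and 2.22 CPM in the posterior and 204 and 201 CPM in the emVE libraries (log2 change -5.99 ± 0.47 SE, edgeR adjusted p = 6.52e-06). Of the 10 left-right genes tested, 7 were lower, none was higher and 3 did not pass (median -2.09), beside the 18.8% of all genes that were lower. Dnah11, an axonemal dynein heavy chain that drives nodal flow, was at 1.01 and 0.791 CPM in the posterior and 23.6 and 21.5 CPM in the emVE libraries (log2 change -4.64 ± 0.36 SE). Pkd1l1, a ciliary membrane protein that senses that flow, was at 11.1 and 7.9 CPM (posterior) and 62 and 64.2 CPM (emVE) (log2 change -2.73 ± 0.48 SE).

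Genes for parts of the motile cilium were also among the 12 largest decreases of the whole comparison. Rsph4a, a radial spoke protein, was at 0.0733 and 0.301 CPM in the posterior and 28.2 and 20.7 CPM in the emVE libraries. Drc7, of the nexin-dynein regulatory complex, was at 0.0488 and 0.1 CPM (posterior) and 12.6 and 11.4 CPM (emVE), and Dynlrb2, a dynein light chain, at 0 and 0.126 CPM (posterior) and 9.29 and 9.35 CPM (emVE). Iqub, a further cilium gene, was at 0 and 0.0879 CPM (posterior) and 12 and 8.86 CPM (emVE). All 4 were far lower in both posterior libraries, with log2 changes of -7.02, -7.30, -7.19 and -7.85. Their posterior values rest on few counts: without posterior replicate 2 the log2 change of Dynlrb2 was -12.37 and that of Iqub -12.53. Nodal, the TGF-beta ligand expressed beside the node, was lower in the posterior section at 4.08 and 2.66 CPM against 10.6 and 9.5 CPM (log2 change -1.58 ± 0.37 SE, edgeR adjusted p = 0.0052), a call lost without posterior replicate 2.

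**Figure D4:**
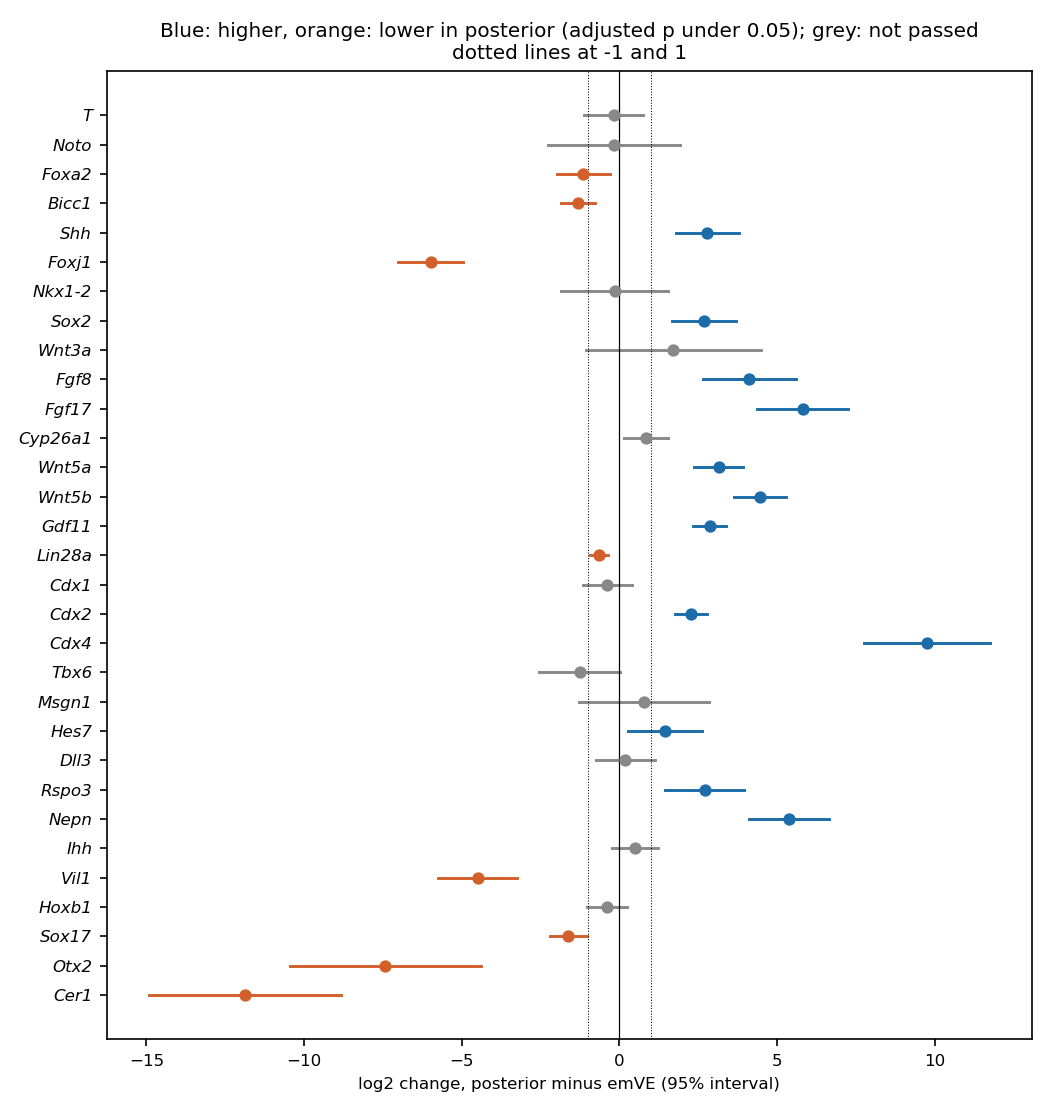
Log2 change, posterior minus emVE, with its 95% interval for axial, tail, hindgut and anterior genes; blue genes were higher and orange genes lower at an adjusted p under 0.05, grey genes did not pass, and dotted lines mark -1 and 1. T, Noto, Nkx1-2, Cdx1 and Hoxb1 span 0, Cdx4 lies farthest right at 9.75 and Cer1 farthest left at -11.87.

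Several growth factors of the tail bud were higher in the posterior section. The list of 22 genes had 11 higher, 3 lower and 8 not past the test, with 1 bounded and a median log2 change, over the genes tested, of 1.37. Of all genes, 21.9% were higher, 18.8% lower and 37.6% bounded. Fgf17, a ligand of the tail bud, was at 67.6 and 33 CPM in the posterior and 1.13 and 0.67 CPM in the emVE libraries (log2 change 5.80 ± 0.65 SE). Fgf8, the main FGF ligand there, was at 113 and 45.7 CPM (posterior) and 4.68 and 4.45 CPM (emVE; log2 change 4.12 ± 0.67 SE). Wnt5b and Wnt5a, ligands that act on cell movement during axis extension, were higher by 4.46 ± 0.38 and 3.14 ± 0.35 SE on the log2 scale. Wnt5b was at 184 and 85.1 CPM in the posterior and 6.12 and 6.15 CPM in the emVE libraries, and Wnt5a at 186 and 154 CPM and 19.5 and 18.8 CPM. Gdf11, the TGF-beta ligand that times the change from trunk to tail, was at 48.2 and 30.4 CPM in the posterior and 5.35 and 5.5 CPM in the emVE libraries (log2 change 2.86 ± 0.24 SE, edgeR adjusted p = 1.02e-05). No emVE library overlapped a posterior one in any of these 5 genes, as was so for 7036 of the 7040 genes that passed.

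Other genes of the list were closer or lower. Sox2, which marks neural and neuromesodermal progenitors, was at 37.8 and 24.8 CPM in the posterior and 6.75 and 3.11 CPM in the emVE libraries (log2 change 2.67 ± 0.47 SE, edgeR adjusted p = 9.13e-04). Wnt3a, the Wnt ligand of the tail bud, was at 37.3 and 16.3 CPM (posterior) and 8.91 and 7.49 CPM (emVE), apart in all libraries. With the spread estimated from all 16 libraries it fell short of the threshold (log2 change 1.71, interval -1.06 to 4.48, edgeR adjusted p = 0.3). It passed with only these groups fitted. Cyp26a1, the enzyme that clears retinoic acid from the tail, was at 196 and 82.7 CPM (posterior) and 73.7 and 82.7 CPM (emVE) (log2 change 0.83, interval 0.13 to 1.53, edgeR adjusted p = 0.057), and passed with DESeq2, without the filter on low counts and without posterior replicate 2, where the log2 change was 1.33. Wnt8a, a Wnt ligand of the early streak, was lower in the posterior section, with 0.305 and 0.389 CPM against 11.2 and 7.37 CPM (log2 change -4.73 ± 0.81 SE). Lin28a, an RNA-binding protein that holds back let-7, was bounded and lower, with 815 and 825 CPM against 1224 and 1357 CPM (log2 change -0.65, interval -0.94 to -0.37).

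Presomitic and somitic genes passed about as often as genes at large, of which 21.9% were higher and 18.8% lower. Of 19, 3 were higher, 4 lower and 12 did not pass (median -0.33), and the 3 higher became 1 without posterior replicate 1 or either emVE library, while the 4 lower became 7 with only these groups fitted. Rspo3, a secreted enhancer of Wnt signals, was at 125 and 67.3 CPM in the posterior and 16 and 13.6 CPM in the emVE libraries (log2 change 2.70 ± 0.57 SE, edgeR adjusted p = 0.0029). Msgn1, a presomitic helix-loop-helix factor, was at 10.1 and 8.51 CPM (posterior) and 7.15 and 3.79 CPM (emVE) (log2 change 0.76, interval -1.30 to 2.83) and had 0 counts in the anterior section. Lower in the posterior section were Mesp1, a factor of newly formed mesoderm, with 0.317 and 0.1 CPM against 3.33 and 4.78 CPM (log2 change -4.26 ± 0.94 SE), and the protocadherin Pcdh8, with 0.806 and 0.879 CPM against 6.92 and 6.18 CPM (log2 change -2.96 ± 0.36 SE). Aldh1a2, the main retinoic acid synthase of trunk mesoderm, was also lower, with 8.69 and 17.9 CPM against 78.5 and 54.8 CPM (log2 change -2.32 ± 0.46 SE).

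Of the 3 Cdx genes, Cdx2 and Cdx4 were higher in the posterior section and Cdx1 did not pass. Cdx1 was at 19.3 and 20.8 CPM in the posterior and 23.2 and 29 CPM in the emVE libraries. It was slightly higher in both emVE libraries, within a log2 interval of -1.17 to 0.41 (edgeR adjusted p = 0.43), and it was at 0.161 and 0.311 CPM in exVE and 2.09 and 2.28 CPM in the anterior section. Cdx2, which fixes intestinal identity, was at 322 and 209 CPM in the posterior and 47.4 and 63.8 CPM in the emVE libraries (log2 change 2.25 ± 0.23 SE, adjusted p = 2.92e-05). In exVE it was at 51.7 and 52.6 CPM (log2 change emVE minus exVE 0.09, adjusted p = 0.77), and it was at 0.685 and 0.933 CPM in the anterior section. Cdx4, the latest of the family and tied to tail outgrowth, was at 215 and 158 CPM in the posterior libraries and 0.0857 and 0.335 CPM in emVE, where it was close to 0 (log2 change 9.75 ± 0.91 SE, adjusted p = 2.51e-05).

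Midgut and hindgut genes did not move together. Of 16, 6 were higher, 5 lower and 5 did not pass (median -0.03), beside 21.9% of all genes higher and 18.8% lower. Nepn, a small leucine-rich protein of the midgut and hindgut endoderm, was at 82.6 and 124 CPM in the posterior and 1.51 and 3.44 CPM in the emVE libraries (log2 change 5.38 ± 0.58 SE, edgeR adjusted p = 3.87e-05). Ihh, the other hedgehog ligand of the gut endoderm, was at 68.5 and 34.4 CPM (posterior) and 29.8 and 43.1 CPM (emVE), with overlapping libraries (log2 change 0.50, interval -0.24 to 1.23). Among the lower genes, Vil1, the villin of the brush border, was at 5.63 and 10.3 CPM in the posterior and 173 and 187 CPM in the emVE libraries (log2 change -4.50 ± 0.57 SE). In exVE, Vil1 was at 421 and 449 CPM.

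The Hox clusters gave some of the highest medians of all lists, and every tested Hox gene of groups 2 to 11 was higher in the posterior section. The 250 bases before the start of RefSeq transcripts (build GRCm38.p6) were searched on both strands for a motif. The motif was TTTATG, a hexamer of the kind that CDX proteins bind. It was present in 3536 of 32851 such windows of all genes (10.8%). Among the Hox genes listed there, 2 of 8 windows of groups 1 to 4 held it. So did 2 of 5 windows of groups 5 to 8 and 1 of 11 windows of groups 9 to 13. The tail bud list had it in 4 of 21 windows and the node and notochord list in 2 of 17, with T in both lists. The sequences are the 2 windows of groups 5 to 8 that held it, both of genes near 0 in emVE and high in the posterior section, and for comparison those of Cdx4, which differed most among the Cdx genes, and of T, which did not pass. Each is written 5′ to 3′ on the gene's strand and ends at the base before the start, and capitals mark the hexamer or its reverse complement CATAAA. Hoxa7 lies at chr6:52218574-52218823 on the minus strand, Hoxb8 at chr11:96281655-96281904, Cdx4 at chrX:103321148-103321397 and T at chr17:8434173-8434422, all 3 on the plus strand.
Hoxa7: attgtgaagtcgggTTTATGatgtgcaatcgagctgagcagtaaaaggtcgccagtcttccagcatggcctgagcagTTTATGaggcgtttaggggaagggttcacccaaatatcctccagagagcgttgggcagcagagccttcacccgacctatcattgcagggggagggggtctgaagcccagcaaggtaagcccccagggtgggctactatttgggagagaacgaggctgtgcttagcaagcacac
Hoxb8: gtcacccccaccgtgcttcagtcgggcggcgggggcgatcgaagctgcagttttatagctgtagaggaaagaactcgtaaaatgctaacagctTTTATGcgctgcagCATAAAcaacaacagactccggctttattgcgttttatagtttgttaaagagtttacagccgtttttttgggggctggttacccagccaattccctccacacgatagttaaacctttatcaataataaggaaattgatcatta
Cdx4: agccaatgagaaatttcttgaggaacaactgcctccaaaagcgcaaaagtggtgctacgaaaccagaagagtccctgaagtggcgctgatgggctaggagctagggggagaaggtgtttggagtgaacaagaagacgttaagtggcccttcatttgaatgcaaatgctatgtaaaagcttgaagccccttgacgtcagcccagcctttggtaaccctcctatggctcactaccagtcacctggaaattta
T: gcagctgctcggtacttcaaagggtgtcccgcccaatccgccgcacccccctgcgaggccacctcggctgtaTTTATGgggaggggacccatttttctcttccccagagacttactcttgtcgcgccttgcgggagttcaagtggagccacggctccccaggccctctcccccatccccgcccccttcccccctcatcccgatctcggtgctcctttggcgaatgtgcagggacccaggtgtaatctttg
The windows of Hoxa7 and Hoxb8 held 2 matches each, that of T held 1 and that of Cdx4 held 0, and a match describes the sequence only.

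Hoxa7 was at 307 and 188 CPM in the posterior and 0.994 and 1.25 CPM in the emVE libraries (log2 change 7.78 ± 0.70 SE, edgeR adjusted p = 1.41e-05). Hoxb8 was at 139.7 and 105 CPM (posterior) and 0.103 and 0.183 CPM (emVE) (log2 change 9.71 ± 0.88 SE, adjusted p = 1.49e-05). All 11 genes of groups 5 to 8 were higher in the posterior section, and their median log2 change was 8.85. It was 7.78 when the 4 genes at 0 counts in emVE were put at their lower bound. Their summed level was 856 and 636 CPM in the posterior and 1.99 and 3.27 CPM in the emVE libraries.

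Hoxb1, an early Hox gene of the hindbrain and the streak, did not pass. It was at 34.5 and 29.3 CPM (posterior) and 45.6 and 37.8 CPM (emVE) (log2 change -0.39, interval -1.02 to 0.24), with both emVE libraries the higher and an interval that just passes -1. Hoxd1, of the same group, differed: it was at 29.9 and 35.3 CPM in the posterior and 0.651 and 0.624 CPM in emVE (log2 change 5.67 ± 0.74 SE, edgeR adjusted p = 1.35e-04). In exVE, Hoxb1 was at 0.282 and 0.311 CPM. In the anterior section it was at 29.1 and 32.6 CPM, and the posterior section did not differ from it beyond the spread (edgeR adjusted p = 0.97).

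From group 2 on, every gene of groups 2 to 4 was higher in the posterior section, and 10 of the 12 genes of groups 1 to 4 in all (median 3.76). Hoxb2 was at 53.9 and 50.3 CPM in the posterior and 8.81 and 8.25 CPM in the emVE libraries (log2 change 2.61 ± 0.40 SE). Hoxa3 was at 39.6 and 25.9 CPM (posterior) and 2.33 and 2.42 CPM (emVE) (log2 change 3.78 ± 0.26 SE), Hoxb4 at 28.4 and 22.4 CPM (posterior) and 1.82 and 1.13 CPM (emVE) (log2 change 4.11 ± 0.44 SE) and Hoxc4 at 44.5 and 49.1 CPM (posterior) and 0.171 and 0.213 CPM (emVE) (log2 change 7.91 ± 0.47 SE). Along the Hoxb cluster the log2 change was -0.39 for Hoxb1, 2.61 for Hoxb2, 3.55 for Hoxb3, 4.11 for Hoxb4, 6.78 for Hoxb5, 7.62 for Hoxb6, 6.59 for Hoxb7, 9.71 for Hoxb8 and 8.36 for Hoxb9, while Hoxb13 did not pass.

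The Hoxc cluster was at 0 counts in both emVE libraries from Hoxc5 to Hoxc11. Bounds were taken against 3 counts over the group. Hoxc8 was at 125 and 121 CPM in the posterior libraries, at least 5089.9-fold higher than in emVE, and Hoxc6, at 85.2 and 58.1 CPM, at least 2969-fold higher. Hoxc9, at 62.9 and 57.3 CPM, was at least 2486-fold and Hoxc10, at 42.4 and 34.2 CPM, at least 1586-fold higher. Hoxc5 was at least 459.6-fold higher, at 13.9 and 8.26 CPM. Hoxc11, a low gene at 0.904 and 1.93 CPM, was at least 58.3-fold higher, and its call was lost without posterior replicate 2 or either emVE library. Outside that cluster, Hoxd4 (9.11 and 7.52 CPM in the posterior libraries, at least 344-fold higher) and Hoxa6 (1.86 and 1.57 CPM, at least 70.9-fold higher) also had 0 counts in emVE. Hoxc4, next to Hoxc5, still had 0.171 and 0.213 CPM in emVE.

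Groups 9 to 13, which pattern the lumbar, sacral and tail levels, had 12 of 14 tested genes higher, where the median was 8.29, and 8.22 when the 3 of them at 0 in emVE were put at their bound. Hoxb9 was at 142 and 207 CPM in the posterior and 0.411 and 0.639 CPM in the emVE libraries (log2 change 8.36 ± 0.92 SE, edgeR adjusted p = 4.55e-05). Hoxa9, at 162 and 119.9 CPM with 2 counts in all of emVE, was higher by 8776 times (95% counting interval 2429 to 72470.3). Hoxd9, at 136 and 90.4 CPM and again with 2 counts in emVE, was higher by 7040.0 times (95% counting interval 1949 to 58136). Hoxa10 was at 68.7 and 39.1 CPM (posterior) and 0.0686 and 0.122 CPM (emVE) (log2 change 9.10 ± 1.01 SE). Single emVE libraries set some folds of this region: without the 1 library that held any counts, the log2 change went from 7.03 to 12.33 for Hoxd10 and from 8.21 to 12.53 for Hoxd11 (without emVE replicate 1), and from 8.23 to 12.50 for Hoxa11 (without emVE replicate 2). The same held for Hoxb5 (6.78 and 12.99) and Hoxd3 (5.00 and 10.80) without emVE replicate 2.

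Of group 13, Hoxd13 and Hoxa13 were higher. Hoxd13 was at 29.5 and 16.6 CPM in the posterior and 0.377 and 0.335 CPM in the emVE libraries (log2 change 6.01 ± 0.84 SE, edgeR adjusted p = 2.19e-04). Hoxa13, which marks the cloaca and hindgut end, was at 3.55 and 4.74 CPM (posterior) and 0.994 and 0.335 CPM (emVE) (log2 change 2.64 ± 0.94 SE, adjusted p = 0.041), a call that was lost without any 1 of the 4 libraries. Hoxb13 and Hoxc13 did not pass: Hoxb13 was at 0.0488 and 0.0251 CPM (posterior) and 0.0343 and 0.152 CPM (emVE), and Hoxc13 at 0.757 and 0.201 CPM (posterior) and 0.171 and 0.792 CPM (emVE), with overlapping libraries in each. Hoxc12 and Hoxd12 had too few counts to be tested.

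**Figure D5:**
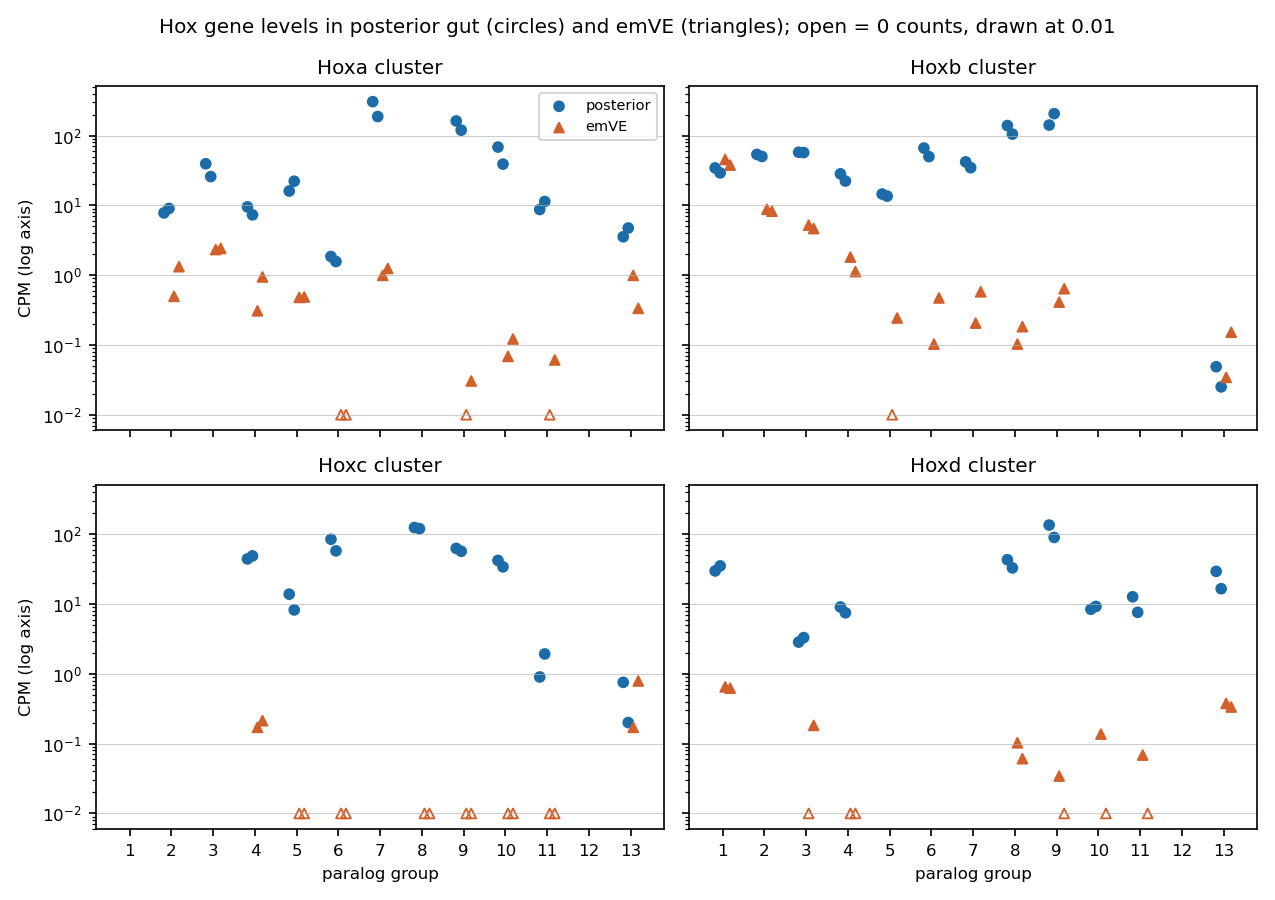
CPM on a log axis of Hox genes, by cluster and paralog group, in the 2 posterior libraries (circles) and the 2 emVE libraries (triangles); open symbols had 0 counts and are drawn at 0.01. Group 1 of the Hoxb cluster nearly overlaps, and from Hoxc5 to Hoxc11 all emVE symbols are open.

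Hox proteins bind DNA with TALE homeobox partners, and retinoic acid switches on the earliest Hox genes. Of 9 TALE genes, 3 (Meis1, Meis3 and Pknox2) were higher and none lower, beside 21.9% of all genes higher, and 2 were bounded (median 0.54). The call on Meis1 was lost with only these groups fitted and without posterior replicate 2 (log2 change 0.34) or emVE replicate 1, and that on Pknox2 without emVE replicate 2. Pbx2 was at 198 and 216 CPM in the posterior and 195 and 196 CPM in the emVE libraries (log2 change 0.08, interval -0.17 to 0.33). Meis3 was at 42.2 and 44.8 CPM (posterior) and 15.9 and 19.1 CPM (emVE) (log2 change 1.31 ± 0.16 SE, edgeR adjusted p = 8.75e-05). Of 15 retinoic acid genes, 4 were higher, 1, Aldh1a2, was lower (2 without posterior replicate 2) and 5 were bounded (median 0.09), beside the 37.6% of all genes that were bounded. The receptor Rarg, known from the tail end of the embryo, was at 123 and 114 CPM in the posterior and 42.1 and 47.3 CPM in the emVE libraries (log2 change 1.41 ± 0.22 SE), while Rara was bounded, at 41 and 46.4 CPM (posterior) and 47.9 and 61.2 CPM (emVE) (interval -0.70 to 0.06). The binding protein Crabp2 was at 128 and 106 CPM (posterior) and 19.2 and 17.1 CPM (emVE) (log2 change 2.69 ± 0.20 SE).

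Genes of the anterior pole of the early embryo were lower in the posterior section. Of 12 genes of the anterior visceral endoderm, 9 were lower and none higher (median -2.64). Cer1, the Nodal, BMP and Wnt antagonist of that tissue, was at 0.122 and 0.0251 CPM in the posterior and 317 and 251 CPM in the emVE libraries, the largest of the decreases ranked here (log2 change -11.87, interval -14.92 to -8.82, edgeR adjusted p = 6.92e-05). Otx2, the head homeobox factor, was at 0.513 and 0.502 CPM (posterior) and 98 and 76.5 CPM (emVE) (log2 change -7.42 ± 1.39 SE), and at 79.6 and 43.6 CPM in the anterior gut section. Hesx1, a forebrain homeobox gene, was at 0.0977 and 0.326 CPM (posterior) and 25.5 and 21.3 CPM (emVE) (log2 change -6.78 ± 0.62 SE). Dkk1, a Wnt antagonist, was lower too, with 39.4 and 18.8 CPM against 84.3 and 72.1 CPM (log2 change -1.43 ± 0.30 SE), yet it was higher in the posterior than in the anterior section and in emVE than in exVE.

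Epiblast and streak genes, and the Nodal pathway with them, were lower. Of 18 epiblast and primitive streak genes, 11 were lower and 1, Evx1, was higher (median -1.98). Eomes, the T-box factor of the early streak, was at 0.562 and 0.276 CPM in the posterior and 37.7 and 36.8 CPM in the emVE libraries (log2 change -6.47 ± 0.42 SE, edgeR adjusted p = 3.92e-06), and at 40.9 and 50.4 CPM in exVE. Fgf5, a ligand of the primed epiblast, was at 0.904 and 0.603 CPM (posterior) and 19.6 and 14 CPM (emVE) (log2 change -4.47 ± 0.51 SE), and Dnmt3b, the DNA methyltransferase, at 127 and 101 CPM (posterior) and 528 and 394 CPM (emVE) (log2 change -2.02 ± 0.14 SE). Of 10 Nodal pathway genes, 7 were lower and 1, Gdf3, was higher (median -2.85), a call lost with a replicate block and without posterior replicate 1 or either emVE library. Foxh1, the DNA-binding partner of SMAD2, was at 6.28 and 4.95 CPM (posterior) and 93.9 and 98.7 CPM (emVE) (log2 change -4.10 ± 0.37 SE), and the co-receptor Cfc1 at 2.08 and 1.02 CPM (posterior) and 19.1 and 22.6 CPM (emVE) (log2 change -3.75 ± 0.51 SE).

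Genes of the absorptive visceral endoderm were much lower in the posterior section. Of 24 genes, 19 were lower, 1, Sox7, was higher, and 4 did not pass, with 1 bounded (median -4.20). The call on Sox7 was lost without posterior replicate 2 or either emVE library. Dab2, an adaptor of endocytosis, was at 24.3 and 98.4 CPM in the posterior and 2372 and 2807 CPM in the emVE libraries (log2 change -5.40 ± 0.72 SE, edgeR adjusted p = 1.57e-04). Mttp, which loads lipid onto lipoproteins, was at 18.9 and 42.6 CPM (posterior) and 543 and 572 CPM (emVE) (log2 change -4.18 ± 0.46 SE). Hnf4a, the nuclear receptor that drives the visceral endoderm program, was at 3 and 12.3 CPM (posterior) and 261 and 289 CPM (emVE) (log2 change -5.17 ± 0.77 SE). Posterior replicate 2 was several times above replicate 1 in Dab2 and Hnf4a.

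The posterior libraries also differed from each other in the serum protein genes. Afp, alpha-fetoprotein, was at 34 and 314 CPM in the posterior and 667 and 851 CPM in the emVE libraries, and did not pass (log2 change -2.13, interval -4.13 to -0.12, edgeR adjusted p = 0.084). It passed with DESeq2 and without posterior replicate 2, where the log2 change was -4.48 (adjusted p = 0.0082). Ttr, transthyretin, was at 17.5 and 114 CPM (posterior) and 813 and 987 CPM (emVE) (log2 change -3.78 ± 0.99 SE, adjusted p = 0.0097); without posterior replicate 1 it was -2.98 and no longer passed (adjusted p = 0.055), and without replicate 2 it was -5.68. In the anterior section Afp was at 2.33 and 8.57 and Ttr at 2.61 and 14.5 CPM. Levels did not rise steadily toward the tail end. The visceral endoderm list summed to 468 and 541 CPM in the anterior and 9291 and 3472 CPM in the anterior-midgut section. It summed to 7065 and 4652 CPM in the midgut-posterior section, above the 466 and 1853 CPM of the posterior section. Gata6, the GATA factor of primitive endoderm, was bounded, at 25.2 and 46.8 CPM (posterior) and 42.3 and 47.7 CPM (emVE) (log2 change -0.32). Visceral endoderm is rich in lysosomes, and their genes had 13 of 16 lower and 1, Gusb, higher (median -1.31); the protease gene Ctsl was at 206 and 291 CPM in the posterior and 1251 and 1271 CPM in the emVE libraries (log2 change -2.34 ± 0.31 SE).

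Genes of definitive endoderm and gut epithelium went in both directions. Of 16, 3 (Pyy, Krt7 and Krt19) were higher, 7 lower and 2 bounded (median -0.51). Of all genes, 21.9% were higher, 18.8% lower and 37.6% bounded, so the higher genes were about as frequent as at large. The 3 higher became 1 without posterior replicate 1 and 0 without emVE replicate 1, and the 7 lower became 3 without posterior replicate 2 or emVE replicate 2 and 4 without emVE replicate 1. Epcam, an adhesion protein of epithelia, was bounded, at 393 and 163 CPM in the posterior and 286 and 268 CPM in the emVE libraries (log2 interval -0.82 to 0.82). Its posterior libraries lay on either side of the emVE pair, so the bound holds for the average of 2 unlike libraries. The keratin gene Krt8 was bounded as well, at 502 and 478 CPM (posterior) and 608 and 671 CPM (emVE) (interval -0.88 to 0.11). Sox17, the endoderm factor, was lower in the posterior section, with 53.1 and 36.7 CPM against 137 and 139 CPM (log2 change -1.62 ± 0.27 SE, edgeR adjusted p = 6.04e-04), and so was E-cadherin, Cdh1, with 254 and 132 CPM against 935 and 869 CPM (log2 change -2.22 ± 0.30 SE). Trh, the hormone gene of early endoderm, was at 10.6 and 6.39 CPM (posterior) and 730.2 and 815 CPM (emVE) (log2 change -6.50 ± 0.77 SE).

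Genes of more anterior gut derivatives are read against the same 21.9% higher and 18.8% lower of all genes. Of 17 foregut and pharynx genes, 3 (Nkx2-3, Nkx2-6 and Foxe1) were higher and 5 (Otx2, Eya1 and Irx1 among them) lower (median -0.59), and the 3 higher became 0 without emVE replicate 2 and 1 without posterior replicate 2 or emVE replicate 1; they were 5 with DESeq2 or with only these groups fitted. Irx1 was at 8.01 and 6 CPM in the posterior and 53.6 and 66.2 CPM in the emVE libraries (log2 change -3.10 ± 0.62 SE, edgeR adjusted p = 0.0021), and Eya1 at 12.4 and 11.2 CPM (posterior) and 33.1 and 28.2 CPM (emVE) (log2 change -1.37 ± 0.26 SE). Of 11 liver and pancreas genes, 4 (Hnf4a and Pdx1 among them) were lower and 1 higher (median -1.27). The higher gene was Mnx1, a homeobox factor of notochord, tail end and pancreas, at 69 and 30.9 CPM in the posterior and 3.96 and 4.96 CPM in the emVE libraries (log2 change 3.48 ± 0.47 SE, adjusted p = 1.67e-04); it was also higher in the posterior than in the anterior section and in emVE than in exVE.

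Among genes of the signalling pathways, ligands and targets did not move as one. The Wnt and FGF counts are read beside the 21.9% of all genes that were higher, 18.8% lower and 37.6% bounded, so bounded genes were fewer here than at large. Of 18 Wnt genes, 7 were higher, 2 (Wnt8a and Dkk1) lower and 2 bounded (median 1.30). Fzd10, a receptor of the tail bud, was at 129 and 109 CPM in the posterior and 10.7 and 10.8 CPM in the emVE libraries (log2 change 3.47 ± 0.52 SE, edgeR adjusted p = 3.59e-04). Of the targets of canonical Wnt signalling, Lef1 and Notum were among the higher genes, Axin2 was bounded at 130.0 and 81.6 CPM (posterior) and 104 and 132 CPM (emVE) (interval -0.95 to 0.64), and Tcf7 was bounded at 78.2 and 74.2 CPM (posterior) and 68.6 and 84.6 CPM (emVE) (interval -0.37 to 0.35). Of 20 FGF genes, 7 were higher, 6 lower and 4 bounded (median 0.23). Of the genes that FGF signals induce, Dusp6, Etv4 and Il17rd were higher. The feedback inhibitor Spry2 was bounded, at 42.5 and 39 CPM (posterior) and 32.8 and 35.2 CPM (emVE) (interval -0.15 to 0.67), and the target Etv5 was bounded at 133 and 101 CPM (posterior) and 131 and 149 CPM (emVE) (interval -0.74 to 0.23), while Spry4 was lower, with 19.7 and 12.4 CPM against 36.4 and 36.3 CPM (log2 change -1.18 ± 0.23 SE).

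Of the Hedgehog, BMP and Notch genes that passed in the fit of all libraries, most were higher in the posterior section. Their counts are read beside the 21.9% of all genes that were higher and the 18.8% that were lower. Of 13 Hedgehog genes, 5 (Shh, Dhh, Ptch1, Gli1 and Gas1) were higher and none lower (median 0.72); without posterior replicate 2 the counts were 2 higher and 2 lower, and without emVE replicate 1 there were 2 higher. With DESeq2, 1 was lower. Ptch1, receptor and target of the pathway, was at 319 and 412 CPM in the posterior and 174 and 190.3 CPM in the emVE libraries (log2 change 1.01 ± 0.26 SE, edgeR adjusted p = 0.0084), a call lost without posterior replicate 2 or emVE replicate 1. Of 16 BMP genes, 8 were higher and 2 (Bmp2 and Chrd) lower (median 0.85), the 2 lower becoming 1 without posterior replicate 2 or either emVE library. Bmp4 was at 100.3 and 106 CPM in the posterior and 4.8 and 3.43 CPM in the emVE libraries (log2 change 4.65 ± 0.28 SE, adjusted p = 3.14e-06), and Bmp2 was the reverse, at 11.9 and 12.8 CPM (posterior) and 63.1 and 58.8 CPM (emVE) (log2 change -2.30 ± 0.30 SE). The BMP target Id3 was at 298 and 261 CPM (posterior) and 105 and 122 CPM (emVE) (log2 change 1.30 ± 0.14 SE). Of 16 Notch genes, 10 were higher and 1, Notch2, lower (median 1.32), the latter lost without posterior replicate 1 or emVE replicate 2; Hey1, a target, was at 92 and 82.6 CPM (posterior) and 20.3 and 23.2 CPM (emVE) (log2 change 2.00 ± 0.17 SE).

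Markers of neighbouring tissues were higher in the posterior section. All 12 endothelial genes were higher (median 5.32), among them Cdh5, the cadherin of vessel walls, at 155 and 224 CPM in the posterior and 0.651 and 2.25 CPM in the emVE libraries (log2 change 7.01 ± 0.78 SE, edgeR adjusted p = 5.00e-05). Of 11 blood genes, 9 were higher and 1, Gata1, lower (median 2.98), a call on Gata1 that was lost without either posterior library or emVE replicate 1. The embryonic globins Hba-x (189 and 195 CPM in the posterior libraries) and Hbb-y (176 and 166 CPM) had 0 counts in emVE and were at least 7941-fold and 7055-fold higher. Emcn (31.6 and 36.4 CPM) and Slc4a1 (16.1 and 13.8 CPM), of endothelium and red cells, were also at 0 in emVE and at least 1405-fold and 618-fold higher. They were present in the anterior section too, where Hba-x was at 313 and 261 CPM and Emcn at 42.4 and 33.8 CPM.

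Several allantois and mesenchyme genes were higher too, with large gaps between the posterior libraries. Of all genes, 21.9% were higher and 18.8% lower. Of 11 allantois genes, 7 were higher (median 3.39), which became 4 without posterior replicate 2 or emVE replicate 2. Tbx4, a T-box factor of allantois and hindlimb, was at 3.05 and 29 CPM in the posterior libraries with 2 counts in emVE, a ratio of 983 times (95% counting interval 272 to 8124). Hand1, of extraembryonic and lateral mesoderm, was at 13 and 123 CPM in the posterior and 6.65 and 6.27 CPM in the emVE libraries (log2 change 3.39 ± 0.89 SE); without posterior replicate 2 it was 1.02 and did not pass (edgeR adjusted p = 0.27), and the call was also lost without either emVE library. Foxf1, the forkhead factor of the mesenchyme around the gut, was at 22.5 and 167 CPM (posterior) and 2.43 and 4.23 CPM (emVE) (log2 change 4.83 ± 0.77 SE), or 2.75 without posterior replicate 2. Of 10 lateral plate and intermediate mesoderm genes, 5 were higher and 1, Lhx1, lower (median 2.65). Of 16 cardiac and splanchnic genes, 6 were higher and 2 (Nkx2-5 and Gata4) lower (median 1.14). These counts rested in part on single libraries. Fewer cardiac genes were higher without posterior replicate 2 or either emVE library, and fewer were lower without posterior replicate 1 or emVE replicate 2. More lateral plate genes were lower without posterior replicate 2.

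Several germ cell genes were higher in the posterior section, where germ cells move through the hindgut at this stage. Posterior replicate 1 was above replicate 2 in 11 of the 12 genes listed, and 21.9% of all genes were higher. Of 12 genes, 7 were higher and 1, Ddx4, lower (median 1.10), but 3 were higher without posterior replicate 1 or emVE replicate 2; Ddx4 was lost without posterior replicate 2, and 2 were lower with DESeq2, with its size factors in edgeR, with a replicate block and with only these groups fitted. Dppa3 (Stella) was at 16 and 2.42 CPM in the posterior and 0.103 and 0.365 CPM in the emVE libraries (log2 change 5.27 ± 1.13 SE, edgeR adjusted p = 0.0058), or 3.35 without posterior replicate 1. It had 0 counts in the anterior section and in exVE. Prdm14, a regulator of germ cell fate, was at 3.44 and 0.678 CPM in the posterior libraries with 2 counts in emVE, a ratio of 129 times (95% counting interval 35.4 to 1069). Prdm1, which germ cells share with other tissues, was bounded at 19.7 and 20.9 CPM (posterior) and 28.1 and 30.1 CPM (emVE) (interval -0.95 to -0.09); it did not pass here but was lower with a replicate block, with DESeq2, with its size factors in edgeR and with only these groups fitted. Neural markers are read beside the 21.9% of all genes that were higher. Of 11 neural tube genes 2 (Sox2 and Pax2) were higher and 1, Tubb3, lower; 4 were higher without emVE replicate 1, and Tubb3 was lost without posterior replicate 1. Of 8 neural crest genes 2 (Ets1 and Snai2) were higher and none lower, 1 of them without posterior replicate 2 or either emVE library, with Sox10, the crest factor, at 0.0733 and 0.0753 CPM (posterior) and 0.206 and 0.0304 CPM (emVE).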

How the data were processed

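The authors deposited 1 count table per library, with raw counts per gene symbol and no normalization. The tool named per the submitters' processing notes is the aligner STAR, with no version. Genome build, gene annotation and counting tool: not given in the sources used here. Gene pairs with near-identical or overlapping transcripts may share counts. Symbols listed more than once (32) were summed, and 25562 of 26761 symbols matched the gene name table. Genes were kept by edgeR's filterByExpr (minimum count 10, minimum total 15). One quasi-likelihood model with a coefficient for each of the 8 groups was fitted to all 16 libraries with TMM scaling (edgeR 4.0.16, limma 3.58.1, R 4.3.3; 8 residual degrees of freedom), and tests were two-sided with Benjamini-Hochberg adjustment over all genes. SE is the log2 change divided by the square root of F. Counting intervals and bounds (3 counts over a group) cover counting error only. The scripts were tested on simulated counts. DESeq2 1.42.0 and other settings were alternatives.

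Replicates differed beyond counting noise (chi-square per gene 85.2 in posterior, 26.4 in emVE). The members and gene lists were chosen with earlier results of these data known. Named genes are the 12 largest changes in each direction among genes whose libraries do not overlap and whose higher group averages at least 3 in log2 CPM, the 12 top genes higher in both side comparisons, up to 6 genes per list by adjusted p, all bounded list members, all Hox genes and 22 key genes; other genes, such as Evx1, Sox7, Gata1, Ddx3y and Xist, were added after their values were seen. Some genes that this rule selects are not reported here. Promoter sequences are RefSeq's, on GRCm38.p6.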

Additional observations from a re-analysis of the deposited data

How the results depend on the processing

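The number of genes that differed between posterior and emVE was 7040, and 6715 with a replicate block; it was 6985 with DESeq2's size factors in edgeR, 6667 without the filter on low counts, 7161 with only these groups fitted, 7817 with DESeq2 and 4875 to 5220 without 1 library. The bounded genes stayed within 1.5 times of their count under each alternative run. Replicate numbers did not pair the posterior and emVE libraries (correlation of same-numbered deviations 0.00192). The number that differed between posterior and anterior gut, 1370, was 2280 with DESeq2 and 615 to 1037 without 1 library. The genes higher in both side comparisons, 207, were 337 with DESeq2 and 79 to 234 without 1 library; the causes were not tested. Of 214 named genes that passed, 171 passed under every alternative, none changed direction, 4 were lost with the replicate block (Fgfr1, Gas1, Hes7 and Krt15), 4 with only these groups fitted (Foxa2, Krt15, Meis1 and Snai2) and 20 to 27 without 1 of the 4 libraries. Of genes named in lists above, the calls on Krt19, Nkx2-6, Tfap2c, Krt15, Elf5, Ccne1 and Tubb3 were lost without posterior replicate 1, those on Meis1, Nkx2-3, Pdx1, Gli1, Gas1, Snai2, Cdh11, Ddx4, Krt15 and Elf5 without posterior replicate 2, those on Pyy, Krt19, Meis1, Nkx2-3, Gli1, Gas1, Snai2, Cdh11, Tfap2c, Krt15 and Elf5 without emVE replicate 1, and those on Pknox2, Nkx2-3, Nkx2-6, Gas1, Snai2, Cdh11, Tfap2c and Elf5 without emVE replicate 2. Without posterior replicate 2 the log2 change of Snai2 went from 3.12 to 0.32, that of Meis1 fell to 0.34 and that of Zeb1 went from 2.95 to 1.90. For genes at 0 counts in a group, only a lower bound of the fold can be given at this depth.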

Other observations

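General cell programs were compared through further lists. Of 16 cell cycle genes, 15 were bounded, beside 37.6% of all genes; 4 were higher and 2 (Mki67 and Ccne1) lower (median log2 change 0.18), the latter 1 without posterior replicate 1. The gene that was not bounded was Cdk1, the mitotic kinase, at 309 and 314 CPM in the posterior and 166 and 166 CPM in the emVE libraries (log2 change 0.91 ± 0.08 SE, edgeR adjusted p = 1.62e-05). Of 16 glycolysis genes, 7 were higher, 1 was lower and 8 were bounded (median 0.36). Ldha, which makes lactate, was at 3678 and 3388 CPM in the posterior and 1714 and 1597 CPM in the emVE libraries (log2 change 1.09 ± 0.13 SE). The lactate exporter Slc16a3 was at 343 and 382 CPM (posterior) and 129 and 125 CPM (emVE) (log2 change 1.51 ± 0.31 SE), while the glucose transporter Slc2a1 was lower, with 553 and 701 CPM against 1367 and 1519 CPM (log2 change -1.20 ± 0.15 SE).

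Of 12 p53 target genes, 6 were higher, 1 was lower and 6 were bounded (median 0.54); Cdkn1a, the cell cycle inhibitor p21, was at 82.7 and 36 CPM in the posterior and 20.2 and 19.9 CPM in the emVE libraries (log2 change 1.56 ± 0.32 SE, or 0.85 without posterior replicate 1), and Eda2r at 9.71 and 7.53 CPM (posterior) and 1.65 and 1.28 CPM (emVE) (log2 change 2.56 ± 0.43 SE). Of 12 immediate early and heat shock genes, 6 were higher and none lower (median 1.46); Jun was at 174 and 239.8 CPM (posterior) and 41.5 and 46.9 CPM (emVE) (log2 change 2.23 ± 0.33 SE) and at 181 and 349 CPM in the anterior section. Of 14 genes of the epithelial to mesenchymal change, 4 (Vim, Snai2, Zeb1 and Cdh11) were higher and 2 (Cdh1 and Esrp2) lower, the 4 becoming 2 without posterior replicate 2 or either emVE library; Vim, vimentin, was at 346 and 614 CPM (posterior) and 67.7 and 73 CPM (emVE) (log2 change 2.77 ± 0.34 SE). Beside the 21.9% of all genes that were higher, of 10 surface ectoderm genes 2 (Krt15 and Trp63) were higher and none lower (1 higher without either posterior library or emVE replicate 1), and of 10 extraembryonic ectoderm genes 3 (Cdx2, Tfap2c and Hand1) were higher and 3 (Elf5, Eomes and Esx1) lower, the 3 higher becoming 1 without either emVE library.

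Several of the largest decreases belonged to none of the lists. Foxd4, a forkhead gene, was at 0.0733 and 0.188 CPM in the posterior and 47.2 and 56 CPM in the emVE libraries, with 2.88 and 1.87 CPM in the anterior section and 0.968 and 0.428 CPM in exVE (log2 change -8.61 ± 1.00 SE, edgeR adjusted p = 6.52e-05). Pga5, which encodes a pepsinogen, was at 0.0244 and 0.0502 CPM (posterior) and 18 and 22.6 CPM (emVE) (log2 change -9.03 ± 0.98 SE), and Chrna9, a nicotinic receptor subunit, at 0.0488 and 0 CPM (posterior) and 9.99 and 12.2 CPM (emVE) (log2 change -8.71 ± 1.48 SE). Arid3c was at 0.0977 and 0.0502 CPM (posterior), 29.7 and 33.2 CPM (emVE) and 40.1 and 55 CPM (exVE), and Pilra at 0.122 and 0.0251 CPM, 14.8 and 12.1 CPM and 14 and 8.15 CPM.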
